A study of Mus musculus with 6 samples.

Results

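The genes described here were 10 adhesion molecules of the immunoglobulin superfamily, Vcam1, Icam1, Icam2, Alcam, Mcam, Ncam1, Cadm1, Cntn2, Sdk1 and Sdk2. They were taken by symbol from the 53819 genes of the deposited count table, and all 10 were listed and passed the filter on low counts. Bulk RNA-seq libraries came from healing flexor digitorum longus (FDL) tendons of 3 DTR mice (Scx-Cre+; DTR F/+) and 3 WT littermates (Scx-Cre-; DTR F/+). Both groups therefore carried 1 floxed allele of the diphtheria toxin receptor, and both received diphtheria toxin (DT) as 5 daily local injections of 100 ng between D14 and D18 after tendon surgery, which was performed at 10 to 12 weeks of age. Each library held 1 tendon harvested at D28 after surgery; the sample titles count the same 28 days from depletion. Scx-Cre is a constitutive driver, so the receptor marks every cell with a history of Scx expression (ScxLin) and not a class of adult tenocytes. Values below are given in the order of replicates 1 to 3 of each group, and as normalized counts unless said otherwise. Scx, the transcription factor of the tendon lineage, had WT values of 2202, 2703 and 3064 and DTR values of 3476, 3407 and 3532 (log2 fold change 0.39, edgeR adjusted p = 0.371). Tnmd, a membrane protein of mature tenocytes, was at a log2 fold change of 0.30 (edgeR adjusted p = 0.609) with overlapping groups.

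Immunoglobulin-family adhesion molecules carry extracellular immunoglobulin-like domains, often followed by fibronectin type III repeats, and hold cells together either by binding a copy of themselves on the next cell or by binding another receptor. Vcam1, Icam1 and Icam2 are counter-receptors for leukocyte integrins, and Vcam1 and Icam1 are induced on endothelium and fibroblasts by inflammatory cytokines through NF-kB. Alcam and Mcam are found on endothelial, stromal and immune cells, while Ncam1, Cadm1, Cntn2, Sdk1 and Sdk2 are known mainly from the nervous system, where they join axons, glia and synapses. Ncam1 and Vcam1 are also carried by muscle progenitors.

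Promoter windows were matched in RefSeq (GRCm38.p6) for 6 of the 10 genes, Alcam, Cntn2, Icam1, Mcam, Sdk1 and Sdk2, and the 250 bases before the annotated start were read in each. Those of Cntn2 and Sdk1 are shown because the largest differences of the genes with a window were measured in them, that of Sdk2 because it is the paralogue of Sdk1, and that of Icam1 as the cytokine-induced gene of the group. The windows lie at chr1:132542941-132543190 on the minus strand (Cntn2), chr5:141241284-141241533 on the plus strand (Sdk1), chr11:114067030-114067279 on the minus strand (Sdk2) and chr9:21015690-21015939 on the plus strand (Icam1). Each is written 5′ to 3′ with motif matches in capitals.
Cntn2: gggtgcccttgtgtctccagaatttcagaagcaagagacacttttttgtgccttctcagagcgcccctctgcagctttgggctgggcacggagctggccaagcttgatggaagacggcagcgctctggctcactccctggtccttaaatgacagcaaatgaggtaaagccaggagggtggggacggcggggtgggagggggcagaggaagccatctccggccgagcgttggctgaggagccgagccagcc
Sdk1: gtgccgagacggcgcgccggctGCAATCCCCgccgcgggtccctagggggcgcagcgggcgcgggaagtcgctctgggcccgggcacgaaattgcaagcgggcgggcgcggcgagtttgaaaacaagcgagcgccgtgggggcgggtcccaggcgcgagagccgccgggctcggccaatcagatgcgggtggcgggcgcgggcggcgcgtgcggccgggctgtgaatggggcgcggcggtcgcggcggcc
Sdk2: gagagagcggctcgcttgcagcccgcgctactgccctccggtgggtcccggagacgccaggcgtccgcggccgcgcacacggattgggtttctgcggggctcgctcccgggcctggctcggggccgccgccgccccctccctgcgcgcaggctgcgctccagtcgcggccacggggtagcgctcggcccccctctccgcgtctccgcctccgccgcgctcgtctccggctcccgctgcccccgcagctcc
Icam1: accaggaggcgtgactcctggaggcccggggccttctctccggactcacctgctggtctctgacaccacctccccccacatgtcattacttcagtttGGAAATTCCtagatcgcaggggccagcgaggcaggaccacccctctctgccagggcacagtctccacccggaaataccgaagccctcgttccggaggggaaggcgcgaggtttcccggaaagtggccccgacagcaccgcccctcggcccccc
The searches were made on both strands. The NF-kB form GGGNNTTNC matched in Sdk1, on the opposite strand, 228 to 220 bases before the start, and 13% of all 32851 promoter windows held it. The NF-kB form GGGNNTNCC, which 14% of windows held, and the TATA box TATAAA, which 12.4% held, matched in none of the 6; the NF-kB forms can overlap, and 21.1% of windows held either. A closer look at the Icam1 window, made after its letters were seen, gave the kB form GGAAATTCC at 153 to 145 bases before the start, and 0.286% of all windows held that form. A stretch of bases after the start was looked up in each gene's GENCODE vM21 transcripts. It was found for every window except that of Icam1, so the Icam1 start and the positions counted from it are less certain. The windows of Sdk1 and Sdk2 were 78% and 78.8% G or C, against 61.2% in Cntn2 and 65.2% in Icam1. The letters of these windows are a description, and no binding or chromatin was measured.

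Between 42744138 and 48854310 counts per library fell on genes. Normalized counts below are counts scaled by TMM factors to the mean library size, and fold changes are DTR over WT from edgeR's quasi-likelihood test with Benjamini-Hochberg adjustment over the 17496 genes that passed the filter. Over all genes, 0% were called at an adjusted p under 0.05 in either direction, with a smallest adjusted p of 0.199. At an unadjusted p under 0.05, 5.52% of genes were higher and 5.45% lower in DTR tendons, and DESeq2's Wald test called 1.12% higher and 1.53% lower at its adjusted threshold of 0.05. In 8.96% of genes every DTR library was above every WT library, and in 7.85% every DTR library was below. Xist was above Ddx3y in WT replicate 2 and DTR replicates 2 and 3, so animals of both sexes were present in each group.

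Of the 10 adhesion genes, edgeR called 0 (0% of all genes). DESeq2 called 3 higher, Vcam1, Cntn2 and Sdk1, and 0 lower, against 1.12% and 1.53% of all genes. At an unadjusted p under 0.05 in edgeR, those 3 genes and Alcam were higher and 0 were lower, against 5.52% and 5.45% of all genes. The libraries of the groups did not overlap in 3 genes, Vcam1, Sdk1 and Alcam, each with the DTR libraries on top, as in 8.96% of all genes. The study had drawn Vcam1, Cntn2 and Sdk1 as adhesion genes higher in these same libraries, so their direction here is not independent evidence. The median log2 fold change of the 10 genes was 0.16, against 0.01 over all genes tested, with 6 fitted higher and 4 lower.

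**Figure D1:**
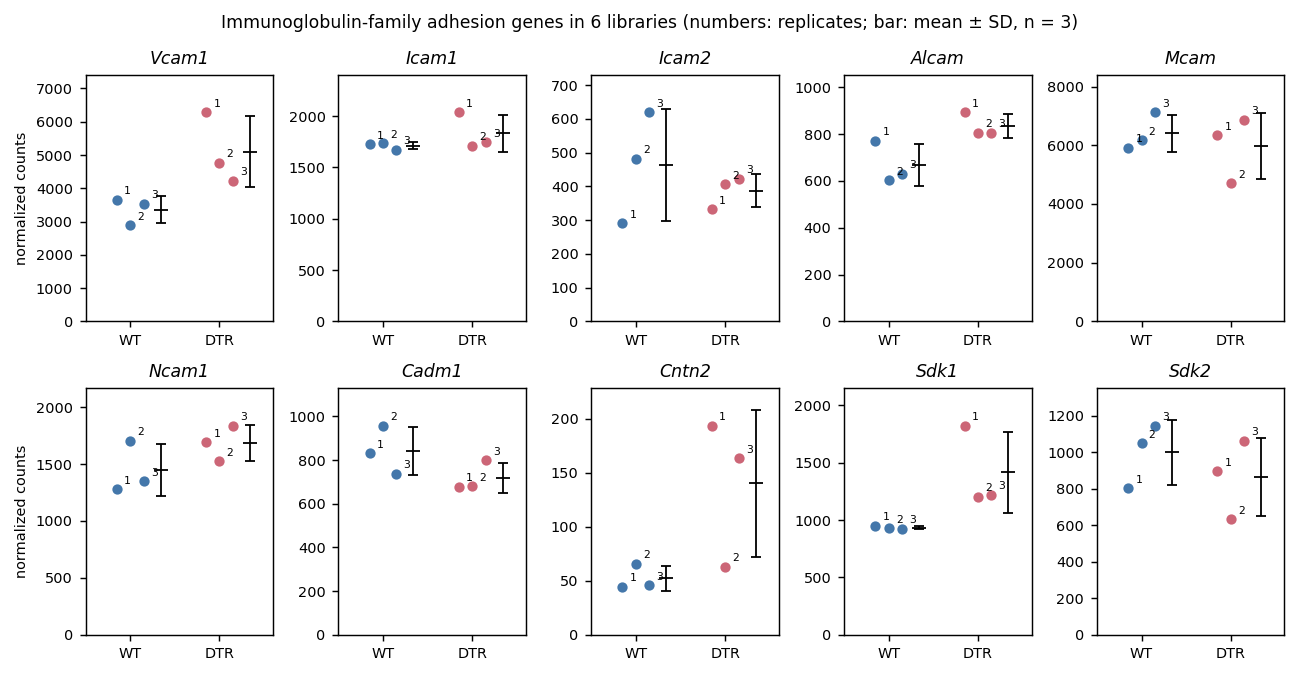
Normalized counts (vertical axes, each from 0) of the 10 genes in the 3 WT (blue) and 3 DTR (red) libraries, with the replicate number beside each point and the mean ± SD of each group as a bar. In Vcam1, Sdk1 and Alcam all DTR points lie above all WT points, and in Cntn2 DTR replicate 2, at 63.1, lies among the WT libraries.

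Among the genes that bind leukocyte integrins, Vcam1 showed the largest difference. Vcam1, the ligand of the integrin built from Itga4 and Itgb1, had WT values of 3662, 2888 and 3535 and DTR values of 6288, 4769 and 4231. The lowest DTR library was above the highest WT library, and DTR replicate 1 stood highest. The means were 3362 ± 415 (SD, n = 3) for WT and 5096 ± 1067 (SD, n = 3) for DTR tendons, a ratio of 1.52. The log2 fold change was 0.60 (standard error 0.16) with a 95% interval from 0.22 to 0.98. Vcam1 did not pass edgeR's adjusted threshold (adjusted p = 0.346) and passed that of DESeq2 (adjusted p = 0.0309). Within the libraries with Ddx3y above Xist (2 WT, 1 DTR) the log2 ratio of means was 0.81, and within those with Xist above Ddx3y (1 WT, 2 DTR) it was 0.64. In tissue libraries, more cells that carry a transcript and more transcript per cell cannot be told apart, here and in all results that follow.

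Icam1, the ligand of the integrins built from Itgb2 with Itgal or Itgam, had WT values of 1726, 1738 and 1673 and DTR values of 2038, 1713 and 1749. DTR replicates 1 and 3 lay above all WT libraries, the latter narrowly, and DTR replicate 2 lay inside their range, so the groups overlapped. The log2 fold change was 0.10 (standard error 0.09, 95% interval -0.12 to 0.31, edgeR adjusted p = 0.706). The log2 ratio was 0.26 within the libraries with Ddx3y above Xist and -0.006 within those with Xist above Ddx3y. An antisense transcript, Gm47079, shares 11.7% of Icam1's exonic bases, and reads of the gene and its antisense partner are separated only if counting used strand. The labels name a stranded TruSeq kit and also a SMARTER kit, and the strand setting of the counting is not given in the sources used here. Icam2, a related ligand that endothelium and platelets carry without induction, had WT values of 290.3, 482 and 619 and DTR values of 332, 407 and 422. All DTR libraries lay inside the WT range. Its log2 fold change was -0.26 with a 95% interval from -0.89 to 0.37 and an edgeR adjusted p of 0.735, and without WT replicate 3 the fitted difference vanished (8.18e-05).

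Alcam, which binds itself and the lymphocyte receptor Cd6, had WT values of 771, 603 and 631 and DTR values of 894, 805 and 806. The groups did not overlap, although WT replicate 1 lay close to the lowest DTR library. The means were 668 ± 90.4 (SD, n = 3) and 835 ± 50.8 (SD, n = 3), with a log2 fold change of 0.32 (95% interval 0.03 to 0.61, edgeR adjusted p = 0.437 and 0.347 from DESeq2). The within-sex log2 ratios were 0.35 and 0.42. Mcam, an endothelial and pericyte adhesion molecule that binds laminin, had WT values of 5917, 6167 and 7126 and DTR values of 6347, 4704 and 6867. DTR replicate 2 was the lowest library and the others overlapped. Its log2 fold change was -0.10 (95% interval -0.45 to 0.25, edgeR adjusted p = 0.835), and without DTR replicate 2 it was 0.05.

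Among the genes known from neural tissue, Cntn2 showed the largest fold change of the 10 genes. Cntn2 encodes a contactin that is anchored to the membrane by a lipid and pairs with Cntnap2 on myelinated axons. It had WT values of 44.7, 65.9 and 45.7 and DTR values of 194, 63.1 and 163. DTR replicates 1 and 3 lay above all WT libraries, while DTR replicate 2 lay below WT replicate 2. The means were 52.1 ± 11.97 (SD, n = 3) and 140.1 ± 68.4 (SD, n = 3), a ratio of 2.69, and the raw counts behind them ran from 44 to 188. The log2 fold change was 1.42 (standard error 0.43) with a 95% interval from 0.42 to 2.42. The adjusted p was 0.354 from edgeR, 0.0387 from DESeq2, and 0.0267 from edgeR without DTR replicate 2, where the log2 fold change was 1.78. The within-sex log2 ratios were 2.10 and 0.78. Cntn2 was high in the libraries with few skeletal muscle transcripts: a list of 20 muscle genes held 0.332% and 0.625% of the counts in DTR replicates 1 and 3, 2.35% in DTR replicate 2 and 1.99% to 2.71% in the WT libraries. With the mean log2 CPM of that list as a covariate, the log2 fold change of Cntn2 was 0.32 (standard error 0.38, edgeR adjusted p = 0.894). The list was low only in DTR libraries, so the parts of muscle content and genotype in this value cannot be told apart.

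Sdk1 and Sdk2, the sidekicks, are large homophilic receptors that match synaptic partners in the retina and are also found in kidney. Sdk1 had WT values of 950.1, 928 and 924, the tightest WT spread of the 10 genes (coefficient of variation 1.49%), and DTR values of 1824, 1202 and 1219.8. Every DTR library was above every WT library, and DTR replicate 1 was far above the other DTR libraries. The means were 934 ± 13.9 (SD, n = 3) and 1415 ± 354 (SD, n = 3), a ratio of 1.52. The log2 fold change was 0.60 (standard error 0.17, 95% interval 0.21 to 0.99), with an adjusted p of 0.347 from edgeR and 0.0472 from DESeq2. It was 0.37 without DTR replicate 1 (edgeR adjusted p = 0.561) and 0.32 with the muscle covariate (edgeR adjusted p = 0.804), and the within-sex log2 ratios were 0.96 and 0.38. Sdk2 had WT values of 802, 1049 and 1145 and DTR values of 896, 633 and 1061.5. The groups overlapped, with DTR replicate 2 lowest. The log2 fold change of Sdk2 was -0.21 (95% interval -0.71 to 0.29, edgeR adjusted p = 0.732), and with the muscle covariate it was -0.63 (edgeR adjusted p = 0.721).

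Ncam1, which binds itself and is modified with polysialic acid in developing nerve and muscle, had WT values of 1281, 1704 and 1348 and DTR values of 1689, 1525 and 1838. WT replicate 2 lay above DTR replicates 1 and 2, so the groups overlapped. An antisense transcript, Gm11149, shares 4.81% of its exonic bases. The log2 fold change was 0.22 (95% interval -0.08 to 0.53, edgeR adjusted p = 0.543). The log2 ratio was 0.36 within the libraries with Ddx3y above Xist and -0.02 within those with Xist above Ddx3y. Cadm1, which joins epithelial cells, mast cells and synapses, had WT values of 832, 959 and 738 and DTR values of 678, 681 and 798. DTR replicates 1 and 2 lay below all WT libraries and DTR replicate 3 did not. Its log2 fold change was -0.23 (95% interval -0.53 to 0.07, edgeR adjusted p = 0.528), the nearest to the threshold of the 4 genes fitted lower.

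**Figure D2:**
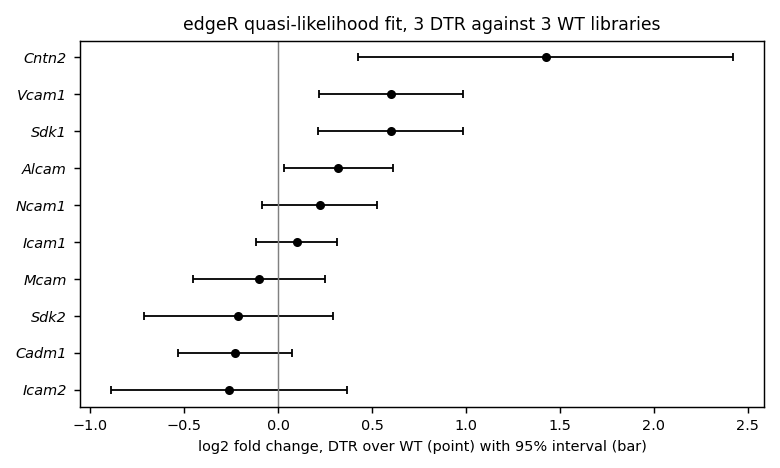
Log2 fold change of DTR over WT (horizontal axis; points) with its 95% interval (bars) for the 10 genes, from edgeR's quasi-likelihood fit on 3 against 3 libraries. The intervals of Cntn2, Vcam1, Sdk1 and Alcam lie above 0, the other 6 span it, and 0 of the 10 passed the adjusted threshold.

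The pairs of related genes were compared within each library, a comparison added after the values were seen. The log2 ratio of Sdk1 to Sdk2 counts took WT values of 0.24, -0.18 and -0.31 and DTR values of 1.03, 0.93 and 0.20. WT replicate 1 and DTR replicate 3 crossed, and the difference of 0.80 had an exact two-sided permutation p = 0.2 (adjusted p = 0.3 over 3 ratios). The log2 ratio of Vcam1 to Icam1 took WT values of 1.09, 0.73 and 1.08 and DTR values of 1.63, 1.48 and 1.27. These did not overlap. The exact two-sided permutation p = 0.1 is the smallest that 3 against 3 libraries allow, and the adjusted p was 0.3 over the 3 ratios. Icam1 and Icam2 gave a log2 ratio that was 0.30 higher in DTR tendons, with an exact two-sided permutation p = 0.4.

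Levels of different genes were compared per length, as TMM-normalized counts scaled to a common library total (CPM) per kilobase, with the median length of each gene's protein-coding transcripts in GENCODE vM21. On this scale the WT order was Mcam at 86.4, Vcam1 at 28.9, Icam2 at 18.2, Icam1 at 14.7, Ncam1 at 11.1, Cadm1 at 10.3, Alcam at 7.72, Sdk2 at 3.09, Cntn2 at 2.47 and Sdk1 at 2.34. The libraries of neighbours in that order overlapped for Icam2 and Icam1, for Ncam1 and Cadm1, for Sdk2 and Cntn2, and for Cntn2 and Sdk1, so these levels did not differ beyond their spread. In DTR tendons Mcam (80.6) and Vcam1 (43.8) again stood first and second, apart from each other and from Icam1 (15.8), and Cntn2 (6.63) stood above Sdk1 (3.54) and Sdk2 (2.67), with overlapping libraries. The levels depend on the transcript length used, most in Cntn2, with a median of 460 bases against 7177 for the longest transcript, and in Alcam, with 1885 against 6036. By the longest transcript, the WT level per kilobase was 0.158 for Cntn2, 2.41 for Alcam, 4.10 for Cadm1, 4.79 for Ncam1 and 7.88 for Icam2. Mcam and Vcam1 stayed first and second on that scale, Icam1 stood above Icam2, and Cntn2 was the lowest of the 10 genes.

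Fold changes were set beside the skeletal muscle transcripts of each library and recomputed under 13 alternatives. With the muscle covariate, Cntn2 (to 0.32), Sdk1 (to 0.32), Ncam1 (to 0.10), Sdk2 (to -0.63) and Mcam (to -0.42) moved by more than 1.5 times, and Icam1 turned to -0.01. Under the same covariate Vcam1 had a log2 fold change of 0.45 (edgeR adjusted p = 0.781) and Alcam of 0.28, and Cntn2, Sdk1, Vcam1 and Alcam had no unadjusted p under 0.05. Sdk2 and Mcam had one, and over all genes the share fell from 11% to 6.44%. DTR replicate 2 lay within the range of the WT libraries in the skeletal muscle list. In it Vcam1 (4769), Sdk1 (1202) and Alcam (805) were above all WT libraries while Cntn2 (63.1) was not. A list of muscle progenitor and regenerating muscle genes held 0.0302% of its counts, against 0.0107% to 0.0135% in the WT libraries. These values come from 1 library, and the part of muscle in the differences was not tested.

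**Figure D3:**
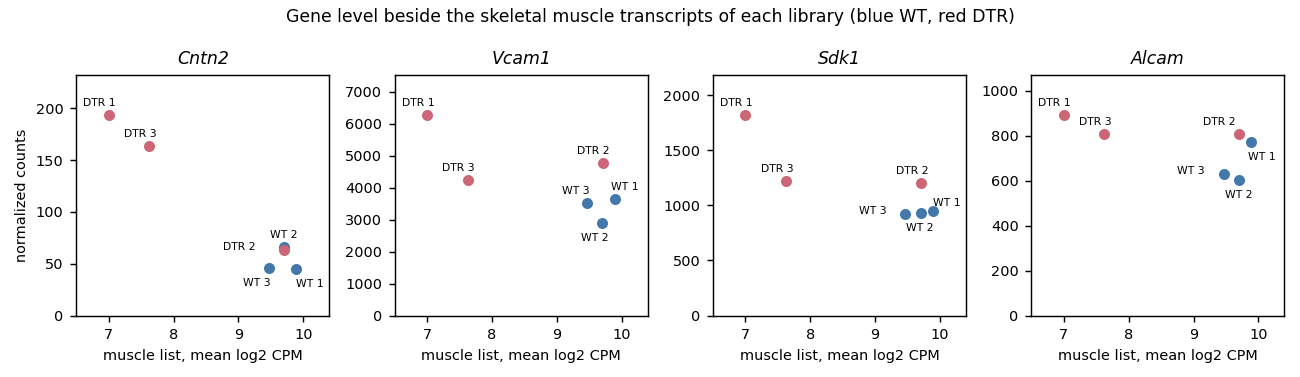
Normalized counts of Cntn2, Vcam1, Sdk1 and Alcam (vertical axes, each from 0) against the mean log2 CPM of the 20 skeletal muscle genes (horizontal axes) in the 3 WT (blue) and 3 DTR (red) libraries. DTR replicates 1 and 3 lie apart at low muscle levels, and at the muscle level of the WT libraries DTR replicate 2 lies above them in Vcam1, Sdk1 and Alcam. The latter rests on 1 library, and the part of muscle in these differences was not tested.

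**Figure D4:**
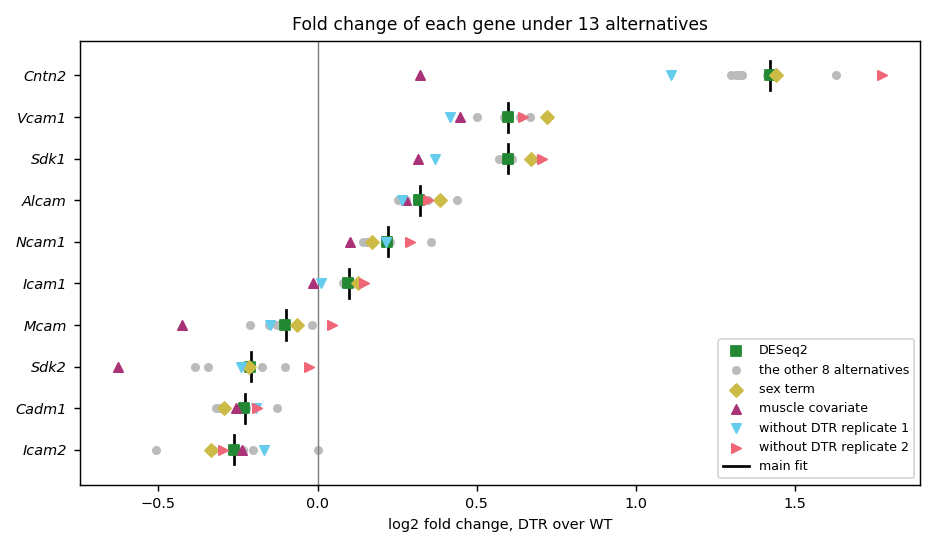
Log2 fold change of DTR over WT (horizontal axis) of the 10 genes in the fit reported here (black bars) and under 13 alternatives (symbols). Cntn2 ranged from 0.32 with the muscle covariate to 1.78 without DTR replicate 2, and Vcam1, Sdk1 and Alcam were above 0 under all 13.

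Fitted values of the rest of the family lay on both sides of 0. Of 50 other immunoglobulin-family adhesion genes, 49 were listed and 40 tested, of which 16 were fitted higher and 24 lower, with a median log2 fold change of -0.11. EdgeR called 0 of them. At an unadjusted p under 0.05, 3 were higher and 3 lower, against 5.52% and 5.45% of all genes. DESeq2 called 1 higher and 2 lower, against 1.12% and 1.53% of all genes. Iglon5 and Lsamp, lipid-anchored IgLON proteins of neurons, lay on opposite sides. Iglon5 had WT values of 189, 229.8 and 205 and DTR values of 393, 324 and 343, without overlap (log2 fold change 0.77 ± 0.17 SE; adjusted p = 0.274 in edgeR and 0.00557 in DESeq2). Lsamp had WT values of 540.00, 542 and 507 and DTR values of 332, 356 and 218, also without overlap (log2 fold change -0.81 ± 0.20 SE; adjusted p = 0.301 in edgeR and 0.00968 in DESeq2). Mpzl2, an epithelial adhesion molecule, had WT values of 286, 242 and 77.95 and DTR values of 20.6, 41.1 and 66.8 (log2 fold change -2.23, edgeR adjusted p = 0.347 and 0.00145 from DESeq2). A list of 14 keratinocyte genes took a share of 0.358%, 0.222% and 0.00288% in the WT and of 0.00147%, 0.00265% and 0.0355% in the DTR libraries, and its part in the Mpzl2 difference was not tested. Nectin3, an adherens junction receptor, had a WT mean of 2365 ± 155 (SD, n = 3) and, without overlap, a DTR mean of 2849 ± 212 (SD, n = 3). Thy1 (log2 fold change 0.31) and Bcam (-0.55), also at an unadjusted p under 0.05, were named after their values were seen.

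**Figure D5:**
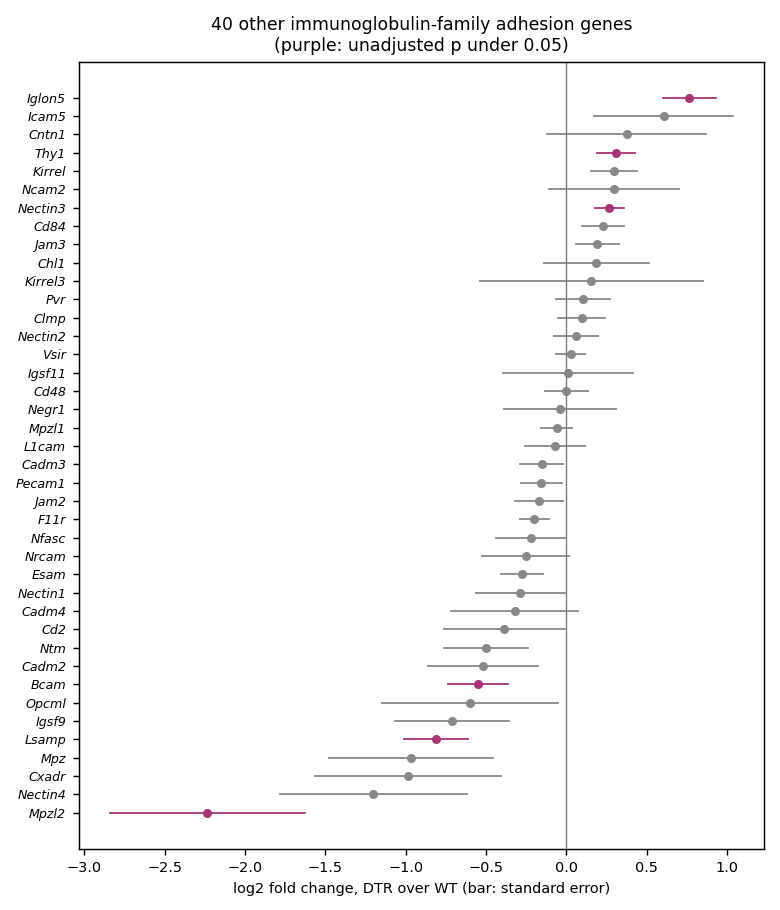
Log2 fold change of DTR over WT (horizontal axis; points) with its standard error (bars) for the 40 tested genes of the other family members, with the 6 at an unadjusted p under 0.05 in purple. Values run from -2.23 in Mpzl2 to 0.77 in Iglon5, and 24 of the 40 lie below 0.

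The binding partners of the 10 genes gave no call. Of 15 integrin and other partner genes, 0 were called by edgeR or DESeq2. In edgeR 0 had an unadjusted p under 0.05, and 0 had groups without overlap. Over all genes, 5.52% were higher and 5.45% lower at that p, and the groups did not overlap in 8.96% and 7.85%. The log2 fold changes of the Vcam1 receptor subunits were -0.09 for Itga4 (standard error 0.12) and 0.29 for Itgb1 (standard error 0.15). Those of the Icam1 and Icam2 receptor subunits were 0.21 for Itgal, 0.19 for Itgam and 0.14 for Itgb2, and all groups overlapped. Cd6, the partner of Alcam, was at -0.60 (standard error 0.43). Cntnap2, the partner of Cntn2, had WT values of 188, 295 and 158 and DTR values of 165, 142 and 92.5. Its log2 fold change was -0.68 (standard error 0.32, edgeR adjusted p = 0.475). DESeq2's Wald test gave an unadjusted p of 0.0405 for Itgb1 and of 0.0314 for Cntnap2, and called neither.

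Of 16 genes that shed, link or modify these molecules, 13 were fitted higher and 3 lower, and 0 were called. Over all genes tested, 9017 were fitted higher and 8479 lower. In 3 of the 16 every DTR library was above every WT library, against 8.96% of all genes, and in 0 every one was below. The cytoskeletal linker Epb41l3 was the 1 gene higher at an unadjusted p under 0.05 (log2 fold change 0.53, edgeR adjusted p = 0.435). Of the polysialyltransferases that act on Ncam1, St8sia2 had WT values of 411, 314 and 283 and DTR values of 599, 321 and 891. WT replicate 1 lay above DTR replicate 2, and the log2 fold change was 0.84 (standard error 0.37, edgeR adjusted p = 0.465). St8sia4 was at 0.18 (standard error 0.12). Of 20 NF-kB and cytokine genes, 17 were tested and 0 called, with 13 fitted higher and a median log2 fold change of 0.08. Il1b, an inflammatory cytokine named after its values were seen, had WT values of 635, 428 and 193 and DTR values of 3890.4, 909 and 335, far above the other libraries in DTR replicate 1 (log2 fold change 2.03 ± 1.08 SE; adjusted p = 0.537 in edgeR). Tnf, the cytokine that induces Vcam1 and Icam1 on endothelium, had WT values of 90.3, 67.8 and 84.2 and DTR values of 164, 123 and 108 (log2 fold change 0.70, edgeR adjusted p = 0.419), and Ifngr2, a subunit of the interferon gamma receptor, was at 0.27 (edgeR adjusted p = 0.371). The groups did not overlap in either gene, and these 2 were the members of that list at an unadjusted p under 0.05. Over all genes, 8.96% had every DTR library above every WT library, and 5.52% were higher at that p.

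Markers of the cell types that carry these molecules were summed in each library. Beside the counts below, 5.52% of all genes were higher and 5.45% lower at an unadjusted p under 0.05. DESeq2 called 1.12% of all genes higher and 1.53% lower. All of the 14 endothelial genes were tested, 0 were called, 3 were fitted higher and 11 lower (median log2 fold change -0.10), and the list held 0.0827% to 0.105% of the counts in WT and 0.0838% to 0.0988% in DTR libraries. Of 13 pericyte and smooth muscle genes, 12 were fitted lower, Abcc9 (-0.57) and Mylk (-0.49) at an unadjusted p under 0.05. DESeq2 called Abcc9 (adjusted p = 0.0356) and not Mylk (adjusted p = 0.0859). The list held 0.210% to 0.297% of the counts in WT and 0.176% to 0.209% in DTR libraries. The 12 Schwann cell genes, markers of the glia that wrap peripheral axons, held 0.0212% to 0.0364% in WT and 0.0130% to 0.0248% in DTR libraries. Of these, 4 were fitted higher and 8 lower. Prx (-0.94), Ncmap (-1.20) and Mbp (-0.90) were lower at an unadjusted p under 0.05, each with a DESeq2 adjusted p under 0.05. The macrophage and myeloid list held 0.403% to 0.495% in WT and 0.436% to 0.478% in DTR libraries. Its 17 genes were fitted higher in 11 cases and lower in 6, with Cd163, a scavenger receptor of resident macrophages, at -1.52 (edgeR adjusted p = 0.293 and 2.7e-06 from DESeq2). Within that list the neutrophil genes S100a8 and S100a9, named after their values were seen, stood at 3512 and 5433 in DTR replicate 1. They were at most at 469 and 562 in the WT libraries. In DTR replicates 2 and 3, S100a8 was at 558 and 215 and S100a9 at 782 and 309. Vcam1, Icam1, Alcam, Cntn2 and Sdk1 were highest in DTR replicate 1, which was also lowest in the skeletal muscle list (0.332% of the counts). Without that library their log2 fold changes were 0.42, 0.01, 0.27, 1.11 and 0.37. A link to the neutrophil genes or to muscle was not tested. The 12 lymphoid genes held 0.00222% to 0.00430% in WT and 0.00286% to 0.00406% in DTR libraries. Among them 7 were fitted higher and 5 lower, with the B cell gene Ms4a1 at -1.34.

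Of the other lists, 13 genes of muscle progenitors and regenerating muscle, cells that also carry Ncam1 and Vcam1, held 0.0107% to 0.0135% of the counts in WT libraries and 0.00708%, 0.0302% and 0.0234% in DTR replicates 1 to 3. Among the 13 genes, 7 were fitted higher and 6 lower. Myh3, the embryonic myosin (log2 fold change 2.03), and Mymk, which fuses myoblasts (1.30), were higher at an unadjusted p under 0.05. DESeq2 called both (adjusted p = 0.0472 and 0.0499), against 1.12% of all genes called higher. The largest raw counts of the list in DTR replicate 2 were those of Myh3 (4768) and Myh8 (4893). Pax7, Myf5 and Myod1 had 68, 67 and 188 there, and log2 fold changes of -0.07, 0.19 and -0.74. The summed share therefore does not stand for progenitors alone. This list was lowest in DTR replicate 1, where Vcam1 was highest. That is 1 library, and the part of muscle progenitors in the Vcam1 and Ncam1 values was not tested. All 20 skeletal muscle genes and all 14 keratinocyte genes were fitted lower and 0 were called by edgeR or DESeq2. The 15 tendon cell genes held 4.97% to 5.81% in WT and 5.56% to 6.86% in DTR libraries. Of these, 11 were fitted higher and 4 lower, with Thbs4 (0.65), Scx and Kera (0.43) higher at an unadjusted p under 0.05. DESeq2 called 1 of the 15, Thbs4 (adjusted p = 5.94e-05), against 1.12% of all genes called higher. Of 10 chondrocyte genes, 7 were tested, with 2 fitted higher and 5 lower. Matn3 (-0.40) and Col9a1 (-1.36) were lower at an unadjusted p under 0.05. DESeq2 called Col9a1 (adjusted p = 0.0420) and not Matn3 (adjusted p = 0.281), against 1.53% of all genes called lower. No defining marker of the endothelial, pericyte, Schwann, macrophage or tendon lists was at 0 in any library, and the part of these cell types in the differences of the 10 adhesion genes was not tested.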

How the data were processed

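RNA-seq was analysed in 6 libraries, 3 DTR and 3 WT, grouped by the sample titles. The authors made single-end libraries from 200 ng total RNA, counted reads per gene with featureCounts and deposited raw counts per gene. The deposited second table holds normalized counts, a signal in which each library's counts were scaled by its DESeq2 size factor. DESeq2 1.22.1 is named in the submitters' processing notes, while aligner, genome build and strand setting are not given in the sources used here. Columns of the authors' own comparisons were not used. Counts were analysed here with R 4.3.3, edgeR 4.0.16 (filterByExpr, TMM, robust quasi-likelihood fit with genotype as the single term, adjusted p threshold 0.05) and DESeq2 1.42.0 as an alternative. Standard errors are the absolute log2 fold change over the square root of F. The code was tested on simulated data, where edgeR recovered 138 of 194 changed genes at an adjusted p under 0.05 and made 20 false calls.

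The 10 genes and all gene lists were chosen with earlier results of these data known. By rule, all 10 were named, with direct partners, Scx, Tnmd, Xist and Ddx3y, and at most 4 genes of each other list, those with the smallest unadjusted p under 0.05. Thy1, Bcam, Il1b, S100a8, S100a9, Myh8, Pax7, Myf5 and Myod1 fall outside it and were named after their values were seen. The within-library ratios and the motif GGAAATTCC were added after the data were seen. Promoter windows came from RefSeq (GRCm38.p6) and transcript lengths from GENCODE vM21. Alternatives were DESeq2, RLE normalization, other filters on low counts, a replicate block, a sex term, a muscle covariate, each library left out in turn, and the longest transcript. No replicate libraries agreed within sampling noise.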

Additional observations from a re-analysis of the deposited data

How the results depend on the processing

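Of 130 fits of the 10 genes under 13 alternatives, 123 kept their direction and side of the threshold, 4 newly passed the adjusted threshold (Vcam1, Cntn2 and Sdk1 under DESeq2, Cntn2 without DTR replicate 2) and 3 reversed. An unadjusted p under 0.05 was found under 12 of the 13 for Vcam1, Cntn2 and Sdk1 and under 8 for Alcam. Icam1 turned to -0.0143 with the muscle covariate, and leaving out single libraries moved Icam2 between -0.51 and 8.18e-05 and Mcam between -0.21 and 0.047, all far from the threshold. The number of genes called was 197 higher and 269 lower under DESeq2, with 3 of the 10 adhesion genes, and 45 higher and 38 lower without a filter on low counts, with 0 of them. With the muscle covariate, 2 adhesion genes had an unadjusted p under 0.05, Sdk2 (-0.63) and Mcam (-0.42), instead of 4, while the share of all genes fell from 11% to 6.44%, and the median over the 10 was 0.0433. Leaving out single libraries gave 0 to 103 genes higher and 0 to 441 lower, with 103 and 441 without DTR replicate 2, between 0 and 1 adhesion genes called, between 3 and 5 at an unadjusted p under 0.05 (5.57% of all genes without WT replicate 2 to 16.6% without DTR replicate 2) and a median from 0.11 to 0.22. Libraries of the same replicate number did not deviate from their group means together (correlations of deviations -0.19, -0.15 and -0.68 for replicates 1 to 3). With 3 libraries per group, this cannot show whether a litter, batch or day was shared. With the replicate block edgeR called 0 genes higher, 1 lower and 0 adhesion genes, and the median was 0.16. Of the WT levels per kilobase, 9 of 10 moved with the longest transcript. The cause of these shifts was not tested.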
